A study of Mus musculus with 46 samples.

Results

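B2 and B4 short interspersed elements (SINEs) were followed locus by locus in RNA of B16F10 cells, a mouse melanoma line, after CRISPR targeting of Arid1a. The loci were taken from a repeat table of 5147736 annotated repeat copies. A copy was included when its class was SINE, its family was B2 or B4 and its mean over the 4 libraries was at least 2 on the deposited normalized log2 scale. Members were thus chosen by their level over both groups and not by the difference between guides. Of 770649 B2 and B4 copies in the table, 24886 met this rule. The libraries were 2 of cells with the sgArid1a guide and 2 of cells with the sgScramble control guide, both groups untreated and labelled as total RNA. The protocol label names a stranded mRNA kit for these libraries too, so the labels leave the RNA selection unsettled. Arid1a encodes a DNA-binding subunit of the BAF (SWI/SNF) chromatin remodelling complex. Gene values came from polyA libraries of other B16F10 cultures with the same guides, untreated or treated with DMSO. The gene fits also took in cultures that lost Cgas or Sting on top of Arid1a, and sgArid1a cultures treated with ruxolitinib. The labels say neither whether each culture was a clone or a pool nor whether the replicates were separate cultures, so p-values measure the spread between these samples only.

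B2 elements are retrotransposons descended from a transfer RNA gene. Their own promoter lies inside the element, as an A box and a B box that recruit RNA polymerase III, and LINE-1 proteins copy their RNA back into the genome. B4 elements join parts of other SINEs, as the name ID_B1 of one subfamily shows. B2 RNA is known to bind RNA polymerase II and repress transcription in heat-shocked mouse cells. Many copies lie in introns or in untranslated regions (UTRs), where they are also transcribed as part of the host RNA. In these data reads from an element's own transcript and from a host transcript running through it were counted alike, and in bulk cultures fewer expressing cells and less RNA per cell cannot be told apart.

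The A and B boxes separate the subfamilies, so 1 copy each of B2_Mm1a and B2_Mm1t is shown first: the one with the highest level among members of at least 150 bases whose letters could be read from a GENCODE noncoding transcript (GRCm38). Letters run 5′ to 3′ along the element, and capitals mark the A box (TGGC, 2 bases of any kind, A, 2 more of any kind and GG) and the B box (GTTCNANNC).
B2_Mm1a in the lincRNA 2700038G22Rik, chr5:23854750-23854939, plus strand: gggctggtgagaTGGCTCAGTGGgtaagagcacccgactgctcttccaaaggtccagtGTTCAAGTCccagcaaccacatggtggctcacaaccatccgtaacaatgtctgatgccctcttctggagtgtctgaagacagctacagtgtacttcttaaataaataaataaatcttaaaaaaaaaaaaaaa
B2_Mm1t in a retained intron of Telo2, chr17:25100772-25100939, minus strand: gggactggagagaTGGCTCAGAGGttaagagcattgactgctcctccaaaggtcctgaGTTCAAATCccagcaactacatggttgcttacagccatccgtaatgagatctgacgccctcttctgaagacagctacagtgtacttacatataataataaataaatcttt
Both copies carry both boxes. Neither was called between the guides, with differences of 0.12 and 0.13.

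Among the 1894 members that could be read this way, both boxes occurred on the element's strand in 69.2% of 39 B2_Mm1a copies, 53.3% of 45 B2_Mm1t copies and 30.6% of 180 B2_Mm2 copies. In the other 6 subfamilies the share was between 0% and 2.02%. Promoter windows of 300 bases from RefSeq (GRCm38.p6) held both letter strings on the gene's strand in 0.16% of 32851 windows. The polyadenylation signal AATAAA occurred in 79.5% of B2_Mm1a, 91.1% of B2_Mm1t and 65.6% of B2_Mm2 copies, against 11.3% of promoter windows. A match is a string of letters and not a shown binding site. These copies all lie in exons of noncoding transcripts and so are not a sample of all members.

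Letters could be read for 6 of the loci that were called between the guides, all in older subfamilies.
ID_B1 in Trpm1, chr7:64210977-64211137, minus strand: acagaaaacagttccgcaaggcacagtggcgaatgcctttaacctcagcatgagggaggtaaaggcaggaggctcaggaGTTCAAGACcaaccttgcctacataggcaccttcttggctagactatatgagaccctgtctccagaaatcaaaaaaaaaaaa
RSINE1 in Trpm1, chr7:64220548-64220699, plus strand: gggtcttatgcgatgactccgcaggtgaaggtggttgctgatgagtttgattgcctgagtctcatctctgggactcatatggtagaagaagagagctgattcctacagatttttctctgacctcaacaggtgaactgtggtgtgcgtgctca
B4A in Trpm1, chr7:64220847-64220988, plus strand: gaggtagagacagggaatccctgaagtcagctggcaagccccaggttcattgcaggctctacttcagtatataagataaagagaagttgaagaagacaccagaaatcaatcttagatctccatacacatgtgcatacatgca
ID_B1 in Mir670hg, chr2:94161023-94161143, minus strand: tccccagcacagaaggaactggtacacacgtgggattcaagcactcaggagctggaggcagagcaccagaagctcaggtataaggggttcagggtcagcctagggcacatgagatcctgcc
RSINE1 in Gm19705, chr1:136690608-136690755, plus strand: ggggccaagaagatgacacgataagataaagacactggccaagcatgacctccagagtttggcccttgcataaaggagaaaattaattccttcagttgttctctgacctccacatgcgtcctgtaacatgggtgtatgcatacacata
B3 in Tulp4, chr17:6123666-6123839, plus strand: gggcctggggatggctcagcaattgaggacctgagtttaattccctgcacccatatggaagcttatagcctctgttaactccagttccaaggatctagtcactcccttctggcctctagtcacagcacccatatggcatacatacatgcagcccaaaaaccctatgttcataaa
The B box letters were found in the ID_B1 copy of Trpm1 and in none of the other 5, and the A box letters in none of the 6. The B3 copy of Tulp4 was higher with sgArid1a and the other 5 were lower.

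The 9 subfamilies differed in age and in level. B3 contributed the most members, 5930 of 148427 copies, followed by ID_B1 with 3686 of 110827, B4A with 2906 of 107073, B2_Mm2 with 2772 of 90007, RSINE1 with 2747 of 115806 and B3A with 2698 of 92925. B4 had 1540 members of 64020 copies, B2_Mm1a 1454 of 18346 and B2_Mm1t 1153 of 23218. B2_Mm1a was the youngest by divergence, with a median of 4.2% from its consensus, and B4A the most diverged at 28.1%. On the log2 scale per 100 bases of element, the median level was highest for ID_B1 at 2.29 and RSINE1 at 2.28, then 2.12 for B2_Mm1a, and lowest for B4A at 1.62.

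Mean levels of the subfamilies barely moved between the guides. B2_Mm1a members averaged 3.41 and 3.29 in sgArid1a libraries, against 3.38 and 3.44 in sgScramble libraries. B2_Mm1t members averaged 3.27 and 3.18 in sgArid1a libraries, against 3.25 and 3.303 in sgScramble libraries. In both subfamilies 1 sgArid1a library lay between the sgScramble libraries and the other below them, so the groups overlapped. The mean differences were -0.061 for B2_Mm1a and -0.052 for B2_Mm1t, and without the second sgArid1a library they were 0.00093 and -0.0053. B2_Mm2 overlapped between the guides, with 3.08 and 3.04 in sgArid1a libraries, against 3.04 and 3.09 in sgScramble libraries. The other 6 subfamilies had differences of 0.017 to 0.035, beside a median of 0.013 over the 840 repeat subfamilies with at least 5 tested loci. Among members with a mean of at least 4, 5 of these 6 differences were negative, from -0.029 for ID_B1 to -0.0040 for B3, and after centring each library on its median ID_B1 was at -0.0038. Groups did not overlap for B3A, B4 and B4A, as they did not for 38.9% of those 840 subfamilies.

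**Figure D1:**
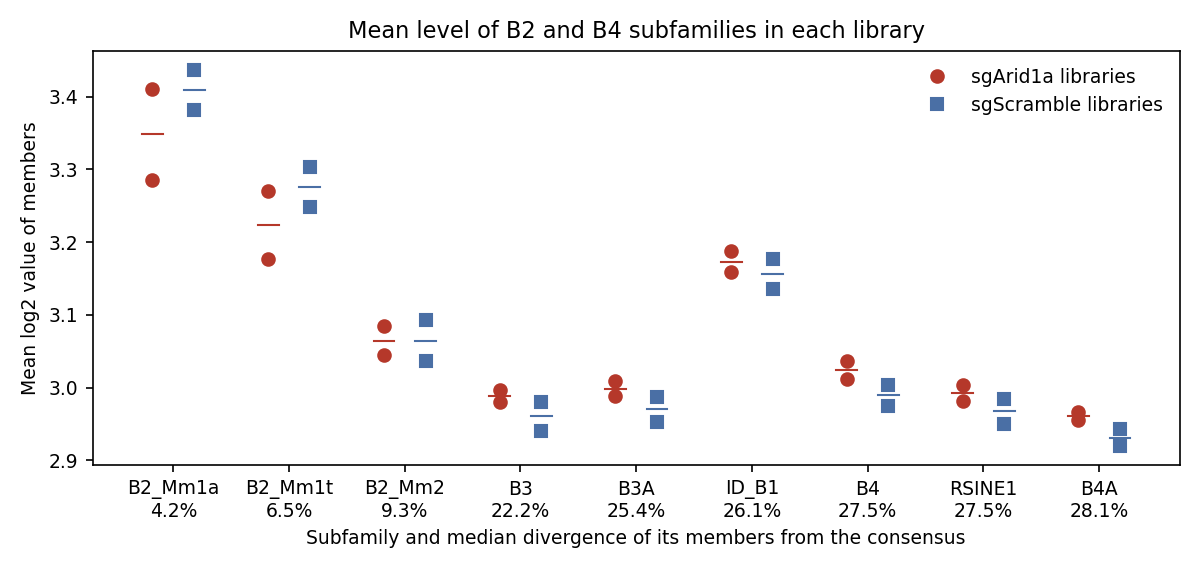
Mean log2 value of the members of each subfamily (y axis) in each library, ordered by the median divergence of the subfamily (x axis); points are libraries and short lines are group means. In B2_Mm1a and B2_Mm1t the lower sgArid1a library, at 3.29 and 3.18, lies below both sgScramble libraries, while the higher one overlaps them.

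The median difference between guides was lowest in the least diverged members. Members within 5% of their consensus had a median difference of -0.062 (n = 1384). Their means were 3.48 and 3.36 in sgArid1a libraries, against 3.46 and 3.52 in sgScramble libraries, so the groups overlapped and the second sgArid1a library alone was low. Those between 5% and 10% had -0.013 (n = 2602). Every bin above 10% had a positive median, between 0.021 and 0.040. B1 loci, the other large SINE family, had a median of 0.0087 within 5% of their consensus (n = 475) and -0.0011 between 5% and 10% (n = 1377). Every B1 bin above 10% had a higher median, between 0.0145 and 0.029, so lower medians under 10% were not particular to B2 and B4. These are descriptions over loci that share the same 4 libraries.

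Few single loci changed. With limma's moderated test over all 103654 repeat loci with a mean of at least 2 and Benjamini-Hochberg adjustment, 9 members were higher and 71 lower at an adjusted p under 0.05. That is 0.0362% higher and 0.285% lower, beside 0.107% higher and 0.262% lower over all tested repeat loci, so the share of members called, 0.321%, was near the background of 0.369%. Some lower calls had an sgArid1a mean under 2 and passed the rule only through sgScramble, so their direction was set by the rule. They were B3 at chr1:136690096-136690279, B2_Mm2 at chr8:72561550-72561736, B3A at chr16:38247908-38248095, B4A in Trpm1 and B4 in Masp1. The split between directions depended on the settings: 5 members were higher and 58 lower after centring, where all tested loci had 42 higher and 212 lower, against 111 and 272 before it, and 23 were higher and 62 lower without the second sgScramble library. The median difference was 0.021 over members and 0.021 over all tested loci. The authors' deposited table gives 2 members as higher and 29 as lower at its adjusted p under 0.05, or 0.00804% and 0.117%, beside 0.0241% higher and 0.0965% lower of all tested loci. Counted without a test, 435 members were higher and 523 lower with groups that did not overlap and a difference of at least 0.5, or 1.75% and 2.1%, beside 2.15% and 2.16% over all tested loci. When all 1804944 loci with a value in any library were tested together, no locus passed the adjusted threshold, although 1566 members had an unadjusted p under 0.05.

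**Figure D2:**
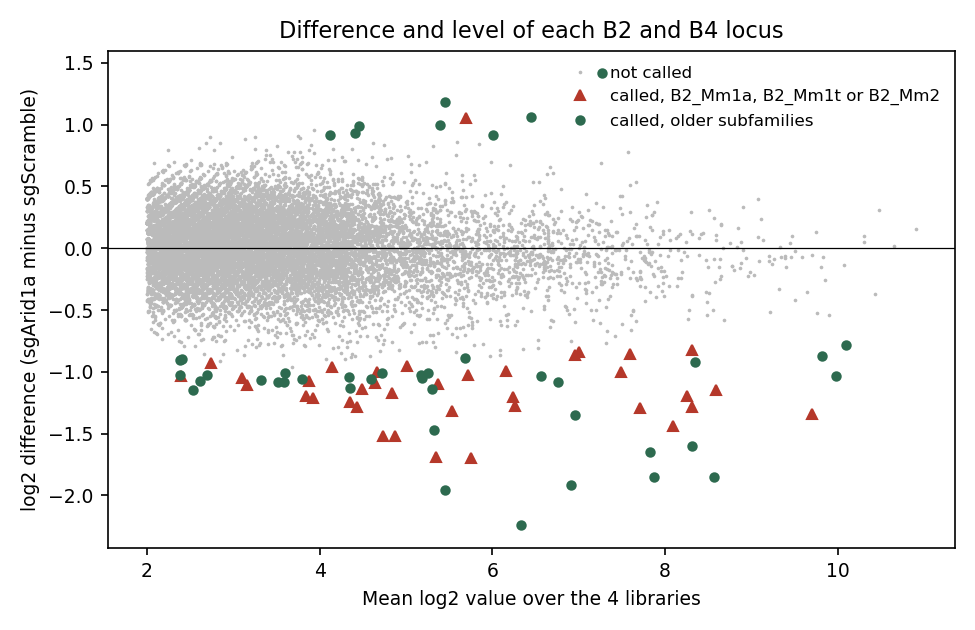
Log2 difference, sgArid1a minus sgScramble (y axis), against the mean log2 value over the 4 libraries (x axis) for the 24886 members; triangles and circles are called loci. Called loci gather below 0, where 71 of the 80 lie, and their share grows with level.

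The called share grew with level. No member with a mean under 4 was called higher, and 8 of 15782 with a mean from 2 to 3 were called lower. Those 8 include the copies listed above whose direction was set by the rule. Of 114 members with a mean of at least 8, 12 were lower and 0 higher. High members lay mostly in annotated UTRs: 70.0% of members with a mean from 6 to 8 did, against 3.78% of those from 2 to 3. Of all members, 681 had an sgArid1a mean under 2 and 995 an sgScramble mean under 2, so these passed the rule through the other group. Values at the edge of the rule were 2.0003 for a B3 copy at chr19:24144303-24144449, 2.0003 for an ID_B1 copy at chr12:21120608-21120821 and 2.0008 for a B4 copy at chr9:103442246-103442558. Just outside it were B4A at chr10:43537231-43537511 with 1.9997, B2_Mm2 at chr1:135453563-135453739 with 1.9998 and B3 at chr11:88577886-88578084 with 1.9998.

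None of the 6 members with the highest levels was called. The highest was a B3 copy in the UTR of Nedd4, a ubiquitin ligase, at chr9:72669894-72670111, antisense to the gene. It had 11.09 and 10.88 in sgArid1a libraries, against 10.76 and 10.91 in sgScramble libraries, a difference of 0.15 ± 0.16 (SE, adjusted p = 0.88). A B2_Mm1a copy in an intron of Zfp423, a zinc finger transcription factor, at chr8:87919911-87920098 came next. The counting command names no strand, so the orientation of a copy does not say which strand its reads came from. The Zfp423 copy had 10.82 and 10.51 in sgArid1a libraries, against 10.60 and 10.69 in sgScramble libraries, with no other tested repeat within 5 kb. The remaining 4 lay in UTRs of Eps8, an actin regulator, Scpep1, a carboxypeptidase, Mgat5, an N-glycan branching enzyme, and Paics, an enzyme of purine synthesis. Their differences were 0.31 ± 0.16 for RSINE1 in Eps8, -0.37 ± 0.16 for ID_B1 in Scpep1, 0.10 ± 0.16 for ID_B1 in Mgat5 and 0.05 ± 0.16 for B3A in Paics, with limma adjusted p-values between 0.56 and 0.97.

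The locus with the largest fall lay in Trpm1, a cation channel gene of melanocytes. This ID_B1 copy in a retained intron, antisense to the gene and printed above, had 5.37 and 5.05 in sgArid1a libraries, against 7.45 and 7.45 in sgScramble libraries. The difference was -2.24 ± 0.20 (limma adjusted p = 1.7e-07). The rule that named the largest falls required groups that did not overlap, so that order is no separate result. A B3 copy at chr7:64218315-64218540, in a UTR of a Trpm1 transcript and antisense to it, had 6.21 and 5.70 in sgArid1a libraries, against 7.64 and 8.10 in sgScramble libraries. It fell by 1.91 ± 0.21 (limma adjusted p = 3e-06). All 7 members inside Trpm1 were lower in both sgArid1a libraries than in either sgScramble library, and 6 of the 7 were called. Over all tested loci 0.262% were called lower, and 2.16% were lower by at least 0.5 without overlap. Differences of the 7 members ran from -2.24 to -0.79. A called B4A copy among them had 1.84 and 2.03 in sgArid1a libraries, against 2.70 and 2.97 in sgScramble libraries. That copy passed the rule only through the sgScramble group, so its direction was set by the rule. In polyA libraries of other untreated cultures the Trpm1 message itself had a difference of -2.27 ± 0.10 (limma adjusted p = 2.5e-08), and in DMSO-treated cultures one of -1.52 ± 0.10 (adjusted p = 1.7e-06).

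Other pigment genes held falling copies too. Oca2 encodes a melanosomal transporter. In its introns a B3A copy at chr7:56335263-56335451 had 4.50 and 4.45 in sgArid1a libraries, against 6.36 and 6.51 in sgScramble libraries, a difference of -1.96 ± 0.20 (limma adjusted p = 9.7e-07). An ID_B1 copy there had 3.02 and 2.94 in sgArid1a libraries, against 3.83 and 4.29 in sgScramble libraries (difference -1.08). Tyr encodes tyrosinase, the rate-limiting enzyme of melanin synthesis. A B2_Mm1t copy in its UTR at chr7:87427970-87428161 had 5.72 and 5.60 in sgArid1a libraries, against 6.65 and 6.66 in sgScramble libraries. All 4 members in Tyr were lower in both sgArid1a libraries and 2 were called. No minimum difference was asked for that order, and the share over all tested loci without one was not computed. The listed melanocyte markers were not lower throughout. The 6 members in Mitf had a median difference of 0.18, 8 in Dct 0.047 and 8 in Mlana 0.0019. The 17 in Pmel had -0.030, 3 in Slc45a2 -0.14 and 4 in Tyrp1 -0.20, and none of these was called. The Mitf message had a difference of -0.46 in untreated cultures (limma adjusted p = 0.0063), in the other direction from its members. Over the 11 melanocyte genes, 9 held 59 members, of which 0 were called higher and 10 lower, with a median of -0.087, beside 0.262% lower over all tested loci. All 10 lay in Trpm1, Oca2 and Tyr, with 6, 2 and 2, and the first 2 of these genes were named for their large falls.

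The next largest falls were in the UTR of Gxylt2, a xylosyltransferase that acts on Notch repeats. An RSINE1 copy at chr6:100805078-100805211 had 6.96 and 6.93 in sgArid1a libraries, against 8.82 and 8.78 in sgScramble libraries. The difference was -1.85 ± 0.18 (limma adjusted p = 5.7e-07). A B3 copy downstream at chr6:100805244-100805458 had 7.78 and 7.50 in sgArid1a libraries, against 9.46 and 9.53 in sgScramble libraries, also a difference of -1.85 ± 0.18 (adjusted p = 5.4e-07). A B3A copy at chr6:100806129-100806307 runs against the gene and also fell, with a difference of -1.65 ± 0.19 (adjusted p = 4.6e-06). Of 11 members in Gxylt2, 5 were called lower, beside 0.262% over all tested loci, and 10 had groups that did not overlap. No minimum difference was asked for the 10, and the share over all tested loci without one was not computed. Uncalled members among those 10 include a B4 copy with 1.76 and 2.03 in sgArid1a libraries and an RSINE1 copy with 2.05 and 1.94. Both passed the rule only through the sgScramble group, so their direction was set by the rule. The gene itself had a difference of -1.19 ± 0.10 in untreated cultures (limma adjusted p = 5.8e-06).

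**Figure D3:**
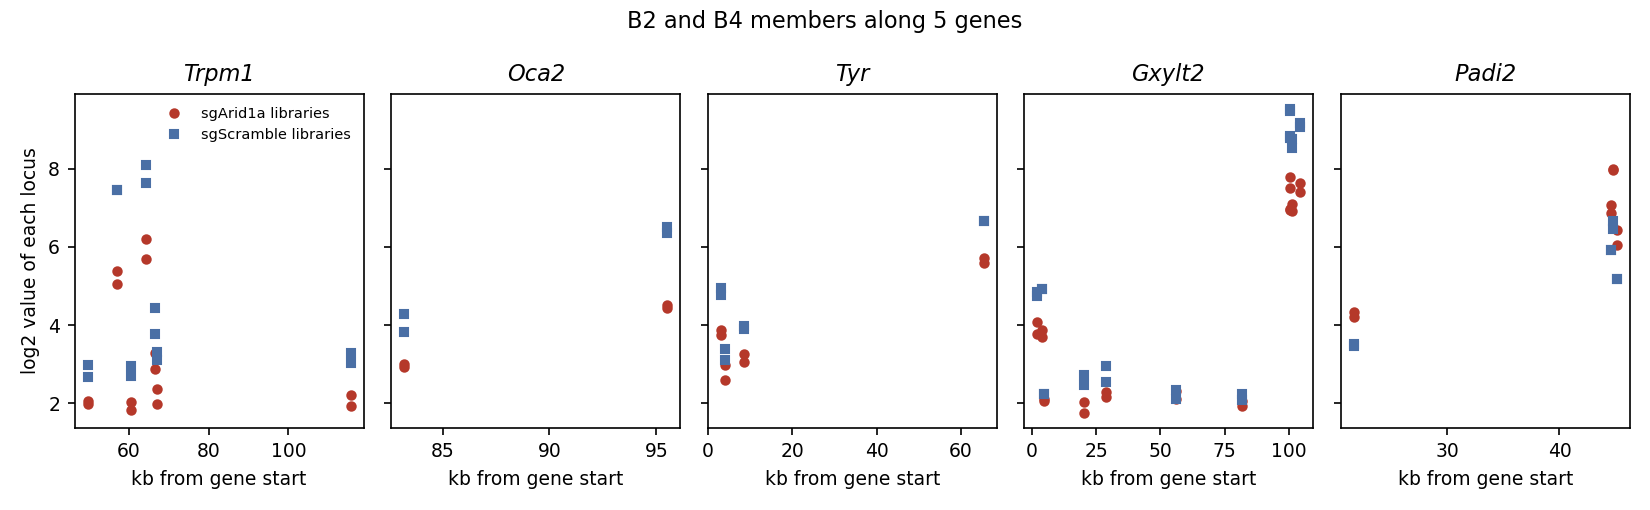
Log2 value of each member (y axis) in the 4 libraries against its distance in kb from the start of the host gene (x axis) for Trpm1, Oca2, Tyr, Gxylt2 and Padi2. All 7 Trpm1, both Oca2 and all 4 Tyr members are lower in sgArid1a libraries, and the Padi2 members are higher. A B4A copy in Trpm1 passed the rule only through its sgScramble values.

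Rises were fewer, and 6 of the 9 lay in UTRs. Padi2 encodes a peptidylarginine deiminase, which converts arginine to citrulline in proteins, and overlaps the noncoding gene Gm13031 on the other strand. A B3 copy in the UTR at chr4:140951102-140951307 had 7.98 and 7.97 in sgArid1a libraries, against 6.46 and 6.67 in sgScramble libraries. It rose by 1.42 ± 0.19 (limma adjusted p = 8.9e-05). A B3A copy at chr4:140950922-140951090 had 7.08 and 6.87 in sgArid1a libraries, against 5.91 and 5.92 in sgScramble libraries. A B2_Mm2 copy at chr4:140951444-140951637, 1 of 2772 members of its subfamily and the only one of it called higher, had 6.03 and 6.43 in sgArid1a libraries, against 5.17 and 5.17 in sgScramble libraries. Both of these rose by 1.06, with limma adjusted p-values of 0.0059 and 0.01, and the B2_Mm2 copy had 0.86 with an adjusted p of 0.17 without the second sgArid1a library. The Padi2 message was higher by 0.83 ± 0.10 in untreated cultures (limma adjusted p = 2e-04).

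A B3A copy in the UTR of Slc26a2, a sulfate transporter, had 6.22 and 5.88 in sgArid1a libraries, against 4.98 and 4.75 in sgScramble libraries (difference 1.19 ± 0.21, limma adjusted p = 0.0032). An RSINE1 copy in the UTR of Tgfa, a ligand of the EGF receptor, at chr6:86274519-86274685 had 5.80 and 5.996 in sgArid1a libraries, against 4.93 and 4.88 in sgScramble libraries (difference 0.999 ± 0.204, adjusted p = 0.015, and 0.90 with 0.14 without the second sgArid1a library). An intergenic B3 copy at chr7:144583700-144583851 had 5.02 and 4.88 in sgArid1a libraries, against 4.24 and 3.68 in sgScramble libraries. That last rise, 0.99 ± 0.22 (limma adjusted p = 0.034), was 0.71 with an adjusted p of 0.29 without the second sgScramble library and 0.92 with 0.16 without the first sgArid1a library. Centring and quantile normalization, at 0.97 each, also ended this call, with adjusted p-values of 0.10 and 0.056. The rule that named these 6 rises required both sgArid1a libraries to lie above both sgScramble libraries, so that order is no separate result.

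B2_Mm loci showed a different setting. Of the 5379 members of B2_Mm1a, B2_Mm1t and B2_Mm2, 36 were lower and 1 higher, or 0.669% lower, while 35 of the 19507 members of the other 6, older subfamilies were lower and 8 higher, or 0.179% lower. Over all tested loci 0.262% were lower, and no test of the difference between these shares was made. Both counts of lower loci include copies, listed above, that passed the rule only through the sgScramble group. The largest fall was a B2_Mm1a copy in an intron of Fat3, an atypical cadherin gene, antisense to it, at chr9:15941498-15941685. It had 4.84 and 4.97 in sgArid1a libraries, against 6.53 and 6.68 in sgScramble libraries, a difference of -1.70 ± 0.20 (limma adjusted p = 9.8e-06). No other repeat within 5 kb of it was tested, since none reached a mean of 2. The called B2_Mm loci that were lower measured between 157 and 200 bases and so were close to full length. Copies this young are near-identical, so reads may have been assigned among them, and the level of any 1 copy is uncertain.

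The copies named next were chosen after their values were seen, as were the extra copies in Oca2, Tyr and Gxylt2 above. A B2_Mm1a copy in an intron of Cep95 at chr11:106805973-106806165 was among the most abundant, with 9.12 and 8.95 in sgArid1a libraries, against 10.31 and 10.45 in sgScramble libraries (difference -1.34 ± 0.17, limma adjusted p = 2.5e-05). The 4 other tested repeats within 5 kb of it had a median difference of 0.11. A B2_Mm2 copy in Gm20560 at chr6:73015125-73015283 had 7.45 and 7.31 in sgArid1a libraries, against 8.67 and 8.97 in sgScramble libraries. An intergenic B2_Mm1t copy at chr9:70667086-70667270 had 7.11 and 7.04 in sgArid1a libraries, against 8.29 and 8.43 in sgScramble libraries. In each of these the guides did not overlap, but they were chosen as called loci, so that is no separate result.

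Repeat neighbours, a comparison added after the values were seen, differed between called B2_Mm loci and called older loci. Of the 36 B2_Mm loci that were lower, 15 had another tested repeat within 5 kb, 4 had a called one, and the median of their neighbours' median differences was 0.036. Of the 35 older loci that were lower, 32 had a tested neighbour, 27 had a called one, and the neighbours' median was -0.77. Host messages followed the same order. Of the 15 lower B2_Mm loci inside a single gene tested in untreated polyA cultures, 2 had a host called lower, Tyr and Rasgrp3, and the hosts' median difference was -0.17. Of 23 such older loci, 15 had a host called lower, and the hosts' median was -0.63. Over all genes tested in those cultures 5.98% were lower. The share of all members with a called neighbour was not computed, so the neighbour counts have no background beside them. Loci of the same gene were counted separately here, and copies that passed the rule only through the sgScramble group were kept. Of the 35 lower older loci, 6 lay in Trpm1, 5 in Gxylt2 and 2 each in Oca2, Fam198b and Gm19705. Such loci can be each other's neighbours and can repeat the same host, so these counts are not counts of separate genes.

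**Figure D4:**
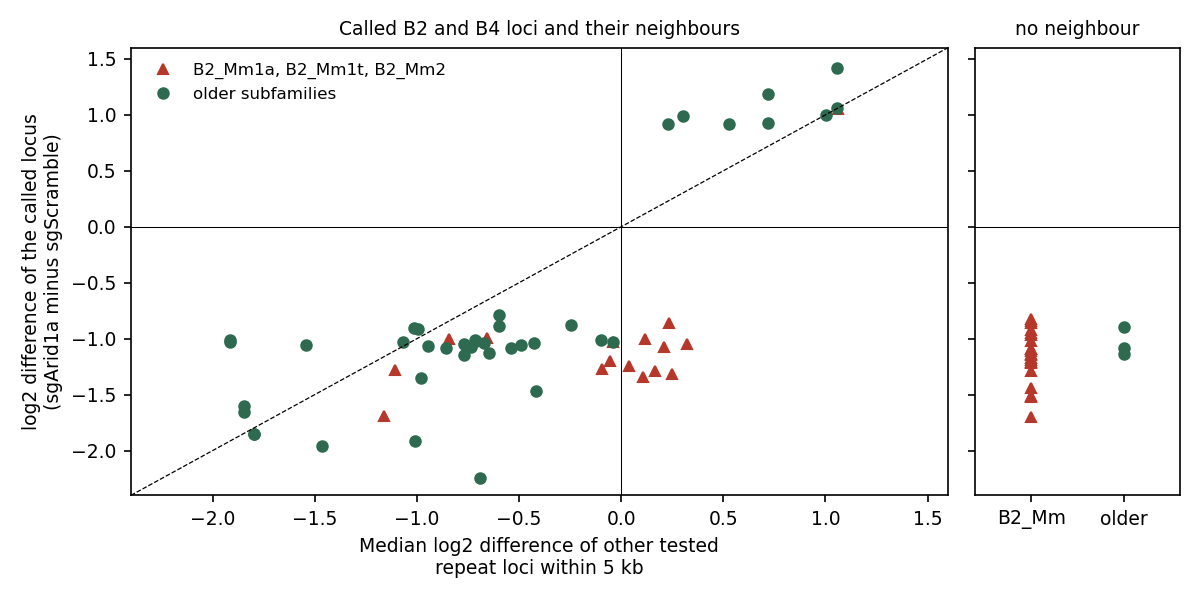
Log2 difference of each called locus (y axis) against the median difference of the other tested repeat loci within 5 kb (x axis); the side panel holds called loci with no such neighbour, and the dashed line marks equal values. The lower older loci (circles) have neighbours at a median of -0.77 and scatter about the line, many with a larger fall than their neighbours; the 15 lower B2_Mm loci (triangles) with a neighbour have a neighbour median of 0.036, although 4 of them have a called neighbour.

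Standing alone was common among B2_Mm members as a whole: 1558 of 5379 had no tested repeat within 5 kb, or 29.0%, against 885 of 19507 older members, or 4.54%. Those 1558 averaged 3.33 and 3.21 in sgArid1a libraries, against 3.32 and 3.38 in sgScramble libraries. Of them 21 were lower, 1.35%, and 0 higher, beside 0.262% lower over all tested loci. Only 1 sgArid1a library lay below both sgScramble libraries. With a mean of at least 4, the 357 lone B2_Mm members averaged 5.15 and 4.93 in sgArid1a libraries, against 5.14 and 5.24 in sgScramble libraries, and 18 of them, 5.04%, were lower. At the same level, 11 of 679 B2_Mm members with a tested neighbour were lower, 1.62%. Of 65 older members without a neighbour 1 was lower, 1.54%, and of 2553 older members with a neighbour 23 were lower, 0.901%. Of 2663 B1 loci with a neighbour at that level 0.751% were called, with 15 lower, 0.563%. Of 124 lone B1 loci 0 were called, a class too small to show a share that low. Calls grew with level, and the share over all tested loci at that level was not computed in this fit. The lone B1 loci had means of 5.54 and 5.38 in sgArid1a libraries, against 5.48 and 5.58 in sgScramble libraries. The second sgArid1a library was the lowest of the 4 in each of these classes. Without it the mean difference of all 1558 lone B2_Mm members was -0.016, against -0.078 with it, and 26 B2_Mm loci in all were called lower.

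**Figure D5:**
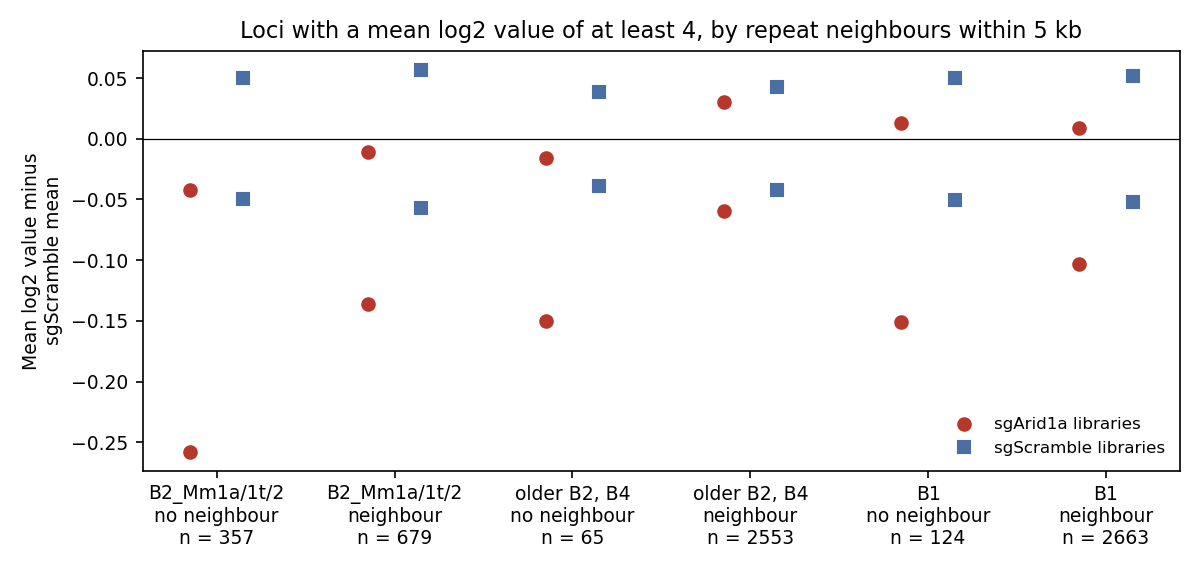
Mean log2 value of each library minus the mean of both sgScramble libraries (y axis) for loci with a mean of at least 4, by class and by presence of another tested repeat within 5 kb (x axis); points are libraries. Lone B2_Mm loci (n = 357) have the lowest sgArid1a library, and the groups overlap in every class, with the higher sgArid1a library at or above the lower sgScramble library.

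Position in the genome was described with GENCODE features, counting a feature when it covered at least 50% of the locus. Of 24886 members, 69.3% were in introns, 10.8% were intergenic, 10.6% were in UTRs of coding transcripts and 9.25% in exons of noncoding transcripts. B2_Mm members were intergenic in 25.6% of cases, older members in 6.74%. Members in UTRs were called most often, 6 higher and 19 lower of 2638, or 0.948%, beside 0.369% over all tested loci, and had a median difference of -0.035. Their mean difference was -0.044, but -0.0024 without the second sgArid1a library and -0.0064 without the second sgScramble library. Of intronic members 1 was higher and 30 lower of 17236, or 0.18%, with a median of 0.035. None of the 20 members in coding sequence was called. Among intronic loci 19 of the 30 lower ones were B2_Mm copies, which made up 3253 of the 17236. UTR members also had higher levels than intronic ones, with medians of 4.21 and 2.58.

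Shares of copies that were members differed by orientation, with no test made. Of 153070 copies inside a RefSeq gene of the deposited gene tables and on its strand, 6.97% were members, against 4.97% of 193462 copies on the opposite strand and 1.01% of 420085 outside genes. Median differences on the same and the opposite strand were 0.029 and 0.026. Members with another member on the opposite strand within 500 bases, which together could pair as an inverted repeat in 1 transcript, numbered 3020. Their median difference was 0.038, against 0.018 for the 21866 others, and 4 were called higher and 3 lower, or 0.232%, against 5 higher and 68 lower of the others, or 0.334%, beside 0.369% over all tested loci.

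Members in genes with a lower message were lower on average, while those in genes with a higher message stood little above those in genes not called. In genes called lower in untreated polyA cultures, 1007 members in 300 genes averaged 3.07 and 3.04 in sgArid1a libraries, against 3.12 and 3.15 in sgScramble libraries. Both sgArid1a libraries lay below both sgScramble libraries. In genes called higher there, 1292 members in 360 genes averaged 3.08 and 3.04 in sgArid1a libraries, against 2.98 and 3.02 in sgScramble libraries, in the opposite order. In the 5050 genes not called, the 17286 members had a median difference of 0.034, beside -0.056 in lower genes and 0.052 in higher genes. Of the 1007 members in lower genes 17 were called lower and 0 higher, or 1.69%, and of the 1292 in higher genes 1 was called higher and 0 lower, or 0.0774%. Of the 17286 in genes not called, 1 was higher and 21 lower, or 0.127%, beside 0.107% higher and 0.262% lower over all tested loci, so the share called in higher genes was not above the background. In genes lower by at least 1, 7 of 61 members, in 26 genes, were called lower. Most of these 7 lay in Trpm1 and the others in Gxylt2 and Masp1. The B4 copy in Masp1 and a B4A copy in Trpm1 passed the rule only through the sgScramble group. The 17 calls in lower genes likewise include several loci each of Trpm1, Oca2 and Tyr, so they are not counts of separate genes. The host calls come from other libraries than the repeat values.

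Genes of the machinery that transcribes or silences SINEs were read in the polyA cultures. Arid1a, the targeted gene, had 10.43 and 10.39 in sgArid1a libraries, against 10.90 and 11.08 in sgScramble libraries of untreated cultures (difference -0.58 ± 0.11, limma adjusted p = 0.0043, and 0.052 without the second sgArid1a library). In DMSO cultures it had 11.29 and 11.24 in sgArid1a libraries, against 11.76 and 11.29 in sgScramble libraries (difference -0.26 ± 0.12, adjusted p = 0.23), and the difference was -0.49 and passed the threshold without the second sgScramble library. The repeat table holds no gene values for the total RNA libraries, and the 4 members inside Arid1a, with a median difference of 0.11 and none called, lie in introns and in a noncoding exon and check nothing about the guide.

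Of 26 RNA polymerase III genes (subunits, TFIIIB and TFIIIC factors, the repressor Maf1 and the RNA-binding protein Ssb), 1 was higher and 0 lower in untreated cultures, where 5.84% of genes were higher and 5.98% lower. It was Polr3g, a subunit found mainly in stem and tumour cells, with 7.91 and 7.96 in sgArid1a libraries, against 7.49 and 7.61 in sgScramble libraries (difference 0.38 ± 0.11, limma adjusted p = 0.042). That call was lost without either sgArid1a library or without the first sgScramble library, with adjusted p-values of 0.12 to 0.22, and without the second sgScramble library 6 genes of the list were higher and 1 lower. Polr3d and Polr1d had differences of 0.40 and 0.38 with adjusted p-values of 0.055 and 0.063. In DMSO cultures 0 of 26 passed, where 3.5% of genes were higher and 4.38% lower. The smallest p among them belonged to Bdp1, a TFIIIB subunit, with a difference of 0.28 ± 0.09 (adjusted p = 0.068), and Polr1d had 0.20.

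Of 20 genes of SINE and heterochromatin silencing, 1 was higher and 0 lower in each culture. Over all tested genes 5.84% were higher and 5.98% lower in untreated cultures, and 3.5% and 4.38% in DMSO cultures. The share of the list called higher was thus near the background. The called gene was Uhrf1 in both cultures, which recruits the DNA methyltransferase Dnmt1 to replicated DNA. In untreated cultures it had 12.51 and 12.44 in sgArid1a libraries, against 11.78 and 11.94 in sgScramble libraries (difference 0.61 ± 0.09, limma adjusted p = 0.001). In DMSO cultures it had 12.05 and 12.11 in sgArid1a libraries, against 11.83 and 11.72 in sgScramble libraries (difference 0.31 ± 0.08, adjusted p = 0.044), and the DMSO call was lost without either sgArid1a library (adjusted p = 0.20 and 0.32). Trim28, a corepressor of transposable elements, had 0.20 with an adjusted p of 0.15 in DMSO cultures. The list medians were 0.093 and 0.086 for the polymerase and silencing lists in untreated cultures and 0.036 and 0.030 in DMSO cultures, beside medians of 0.011 and 0.00084 over all genes. The silencing median depended on single control libraries: in untreated cultures it was 0.043 without the first and 0.16 without the second sgScramble library, and in DMSO cultures 0.145 without the first.

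The 4 libraries held 73.0 and 71.9 M reads for sgArid1a and 62.6 and 62.9 M reads for sgScramble, per the file headers. Melanocyte genes held 59 members, as above, and their summed linear level was 2565 and 2472 in sgArid1a libraries, against 2860 and 3273 in sgScramble libraries. No member lay in the listed T cell, macrophage or keratinocyte genes, of 39, 32 and 0 B2 and B4 copies there, and 1 lay in a fibroblast gene, Col1a2, with a difference of -0.32. In untreated polyA cultures Cd3e, Cd3d, Cd8a, Ptprc, Krt5, Krt14 and Dcn were listed at 0 in all 4 libraries. Other listed markers were present there. Cd68, a macrophage marker, had 4.77 and 4.67 in sgArid1a libraries, against 5.21 and 5.09 in sgScramble libraries (limma adjusted p = 0.012). Col1a2, a collagen gene of fibroblasts, had 7.05 and 7.21 in sgArid1a libraries, against 7.76 and 7.58 in sgScramble libraries (adjusted p = 0.019). The fibroblast marker Pdgfra had 6.77 and 6.65 in sgArid1a libraries, against 6.87 and 6.65 in sgScramble libraries (adjusted p = 0.84). The part of other cells in the repeat values was not tested.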

How the data were processed

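RNA-seq of B16F10 cells was used from 3 deposited tables: the repeat table of the 4 total RNA libraries, and gene tables of untreated and of DMSO-treated polyA cultures (2 libraries per guide). The untreated gene table also holds the Cgas and Sting double knockouts, and the DMSO gene table the ruxolitinib-treated sgArid1a cultures. Gene p-values therefore rest partly on the spread of those groups. The authors aligned reads to mm10 with STAR 2.5.3a, per the submitters' processing notes, and counted and normalized them with HOMER, per the file headers. The deposited values are normalized log2 values, in which a locus with no reads in any library is 0; how reads with several genome matches were assigned is not given in the sources used here, so levels of near-identical copies are uncertain. The header names no strand option for repeats. The deposited divergence of each copy is a fraction, printed here as percent, and the deposited p-values are the authors' own and were used once, as a count.

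Members and gene lists were chosen with earlier results of these data known. limma 3.58.1 (R 4.3.3), with an intensity trend, was fitted to all 103654 repeat loci with a mean of at least 2, and to genes with a mean of at least 4, all groups of a gene table together; p-values were adjusted by Benjamini-Hochberg over all of them, and the fit was tested on simulated data. A call is an adjusted p under 0.05; ± is the standard error of the difference unless stated. Named loci were the 6 highest, the 6 largest called rises and falls whose groups did not overlap, and the 3 on each side of the rule; named list genes were the 4 with the smallest p per culture. bedtools 2.31.1 and GENCODE vM21 (GRCm38) gave positions; 98.5% of 23833 genes overlapped between the deposited and GENCODE coordinates. No genome of the build was used here, so letters were read only where a GENCODE noncoding exon held a whole copy, which sets aside the rule first written for sequences, and none on chromosome 18; 1 further sequence is not reported here. Coordinates are 1-based. The depth of each locus in counts is unknown.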

Additional observations from a re-analysis of the deposited data

How the results depend on the processing

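With all loci that have a value in any library tested together, 0 repeat loci were called by limma, against 383 at a mean of at least 2, and 22692 had an unadjusted p under 0.05. Members and lower B2_Mm loci then also had 0 calls, against 80 and 36; under the other settings these counts ran from 63 to 115 and from 26 to 51. Centring each library on its median left 254 calls over all repeats. Leaving out 1 library gave 387 to 644 over all repeats, 66 to 102 of members and 26 to 45 of lower B2_Mm loci, and 644 came without the second sgScramble library. The median difference of members, 0.021, was -0.027 at a mean of at least 4, 0.00024 after centring, 0.0034 after quantile normalization and 0.0027 to 0.040 without 1 library.

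Subfamily mean differences also changed with the filter. At a mean of at least 4 they were -0.144 for B2_Mm1a, -0.098 for B2_Mm1t, -0.065 for B2_Mm2, -0.0040 for B3, -0.023 for B3A, -0.014 for B4, 0.0021 for B4A, -0.029 for ID_B1 and -0.027 for RSINE1. Over all loci with a value they were 0.00063 for B3, -0.0016 for B3A, -0.0041 for B4, -0.0040 for B4A and -0.00052 for RSINE1. After centring they were 0.0073 for B3A, 0.014 for B4, 0.0087 for B4A and 0.0045 for RSINE1, intronic members had 0.0070, and B4A had 0.011 after quantile normalization. The cause was not tested.

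Without 1 library the subfamily differences ran from -0.124 to 0.00093 for B2_Mm1a, -0.099 to -0.0053 for B2_Mm1t, -0.028 to 0.028 for B2_Mm2, 0.0077 to 0.048 for B3, 0.011 to 0.045 for B3A, 0.021 to 0.049 for B4, 0.017 to 0.042 for B4A, -0.0031 to 0.037 for ID_B1 and 0.0083 to 0.042 for RSINE1. Gene list calls then ran from 0 to 7 for RNA polymerase III in both cultures, 1 to 6 for silencing in untreated and 0 to 4 in DMSO cultures. With no filter on low values 0 polymerase genes were called in untreated and 0 silencing genes in DMSO cultures. Of 144 recomputed values of named loci, 133 kept direction and call and 6 lost the call. The 5 that changed sign were of uncalled loci: B2_Mm1a in Zfp423 at -0.0013 after centring, -0.038 after quantile normalization, -0.135 without the first sgArid1a and -0.027 without the first sgScramble library (0.174 without the second sgArid1a library), and B3A in Paics at -0.097 without the first sgArid1a library (0.197 without the second).

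With the replicate number as a block, 325 repeat loci, 72 members and 32 lower B2_Mm loci were called, and 0 polymerase genes in untreated and 0 silencing genes in DMSO cultures. Deviations of same-numbered libraries correlated at -0.053 over all repeat loci, so the numbers are not shown to pair samples. The number of reads behind each locus is unknown, so differences at low levels were not detectable beyond what these 4 libraries allow.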
